A study of Mus musculus with 4 samples.

Results

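The 7 genes described here are one vascular signalling axis of the islet: the ligand Vegfa, its receptors Kdr and Flt1, the co-receptor Nrp1, and 3 endothelial genes linked to VEGF signalling, Plvap, Esm1 and Angpt2. They were taken by gene symbol, 7 of the 32285 genes in each matrix, and earlier results of these data were known when they were chosen. The study asked how islets of mice with a homozygous knock-in of a Pax4 missense change (HH) respond to a high-fat diet, compared with wild-type littermates (WT). Male mice on the C57BL6/N background ate standard chow (SCD) until islet isolation at 12 weeks of age, or were given 4 weeks of high-fat food (HFD) before isolation at 16 weeks of age, and their islet cells were profiled by droplet 3′ RNA sequencing. The 4 groups, WT SCD, HH SCD, WT HFD and HH HFD, had 1 library each, made from the pooled islets of 2 to 3 mice. A library and its group, and age and diet, therefore cannot be told apart. No test between groups was made, and the difference between any pair of libraries has no replicate check.

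Libraries held 68011082 to 104810105 UMIs (unique molecular identifiers, one per captured transcript) in 4665 to 7123 barcodes, and any pair shared 6 to 11 barcodes. After filters on depth, genes and mitochondrial RNA, 38.3% of the barcodes were kept in WT HFD and 61.6% to 67.8% in the other libraries, and 12407 cells in all remained after removal of predicted doublets. Levels are given in CPM (UMIs of the gene per 1000000 UMIs of all cells of a class in that library). Bracketed ranges are exact 95% intervals that cover counting error only, and differences between libraries are log2 ratios of CPM. The UMI counts were not scaled for gene length, so levels are compared between classes and libraries and never between genes.

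Vegfa is the main secreted growth factor of capillaries. It binds Kdr, the receptor that carries most of its signal, and Flt1, a receptor that binds the ligand tightly and can act as a decoy, while Nrp1 presents the ligand to Kdr. Endocrine cells of the islet are known as a source of Vegfa, and the dense capillaries around them are fenestrated. Plvap forms the diaphragms of those fenestrae, Esm1 is a secreted proteoglycan of sprouting tip cells that is induced by VEGF, and Angpt2 is a secreted ligand of the receptor Tek that loosens vessels.

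Endothelial-like cells numbered 127 in WT SCD and 89 in HH SCD, with 146 in WT HFD and 192 in HH HFD, or 4.11%, 2.89%, 7.30% and 4.54% of the kept cells. Under a looser filter the shares were 5.96%, 5.07%, 6.37% and 8.71%, so the order of the libraries depended on the filter. The members were kept out of the genes used for clustering, although Plvap, Flt1, Esm1 and Kdr were among the genes that led this cluster afterwards. The label held for 9 of the 10 endothelial markers. Cldn5, a tight junction protein of many endothelia, was low, at 38.0, 78.3, 0.843 and 21.3 CPM. The 10 markers summed to 11878, 12965, 13698 and 14011 CPM in these cells, against 13.3 to 30.1 CPM in beta-like cells. Hormone RNA also reached endothelial-like droplets, where 7 hormone genes summed to 36304 CPM in WT SCD and 20625 in HH SCD, with 17521 in WT HFD and 15178 in HH HFD. Values from the cells with few hormone UMIs, a smaller set of cells, are given for HH over WT ratios that they move, there or in the closing sections. The part of hormone RNA in those moves was not tested.

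All 7 genes are protein-coding. Positions on GRCm38 are those of GENCODE M21, and the annotation used for counting may be another. Vegfa (ENSMUSG00000023951) lies at chr17:46016993-46032369 on the minus strand. The receptors are both on chromosome 5, with Kdr (ENSMUSG00000062960) at chr5:75932827-75978458 and Flt1 (ENSMUSG00000029648) at chr5:147561604-147726011, both on the minus strand. Chromosome 8 holds 3 members: Nrp1 (ENSMUSG00000025810) at chr8:128358604-128503363 on the plus strand, and Plvap (ENSMUSG00000034845) at chr8:71497765-71511752 and Angpt2 (ENSMUSG00000031465) at chr8:18690263-18741562 on the minus strand. Esm1 (ENSMUSG00000042379) lies at chr13:113209659-113218098 on the plus strand. Angpt2, Esm1 and Plvap overlap genes of the other strand, Mcph1, Gzmk and Gtpbp3. Whether counting used the strand is not given in the sources used here.

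The promoters of the ligand and of 3 endothelial members are shown because these genes were found in separate cell classes. Each is the stretch from 250 to 11 bases before the RefSeq start (GRCm38.p6), 240 bases on the gene's strand, and capitals mark GGAA or TTCC, the core of sites bound by ETS factors, a family that includes regulators of endothelial genes. The windows are chr17:46032388-46032627 for Vegfa, chr5:75978466-75978705 for Kdr, chr5:147726022-147726261 for Flt1 and chr13:113209409-113209648 for Esm1.
Vegfa: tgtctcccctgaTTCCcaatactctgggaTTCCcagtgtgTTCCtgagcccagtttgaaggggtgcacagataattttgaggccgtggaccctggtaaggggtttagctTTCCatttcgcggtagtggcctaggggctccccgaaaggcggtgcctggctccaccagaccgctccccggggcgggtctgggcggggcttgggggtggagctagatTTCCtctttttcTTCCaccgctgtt
Kdr: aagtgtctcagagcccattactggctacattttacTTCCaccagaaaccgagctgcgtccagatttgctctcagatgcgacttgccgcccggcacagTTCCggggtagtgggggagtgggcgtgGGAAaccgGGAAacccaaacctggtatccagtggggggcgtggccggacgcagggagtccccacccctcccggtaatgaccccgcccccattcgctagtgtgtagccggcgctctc
Flt1: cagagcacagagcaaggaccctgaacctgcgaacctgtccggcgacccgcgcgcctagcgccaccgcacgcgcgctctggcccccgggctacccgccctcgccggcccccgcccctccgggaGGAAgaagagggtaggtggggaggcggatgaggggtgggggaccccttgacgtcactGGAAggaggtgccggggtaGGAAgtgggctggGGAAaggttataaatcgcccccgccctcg
Esm1: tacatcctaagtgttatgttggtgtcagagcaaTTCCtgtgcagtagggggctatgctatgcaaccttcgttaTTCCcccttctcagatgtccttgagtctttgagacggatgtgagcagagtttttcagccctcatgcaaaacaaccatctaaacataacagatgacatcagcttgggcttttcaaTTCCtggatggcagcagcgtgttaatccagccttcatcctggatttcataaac
GGAA, searched on both strands, was found 6 times for Vegfa, 4 times each for Kdr and Flt1 and 3 times for Esm1, against a median of 3 over 32851 promoters, of which 92.7% held it. ACGTG or GCGTG, the core of sites bound by hypoxia-inducible factors, was found 0 times for Vegfa, 2 times for Kdr and 1 time each for Flt1 and Esm1, while 37.4% of all promoters held either. G and C made up 59.2% of the window of Vegfa, 62.1% for Kdr, 70.8% for Flt1 and 45% for Esm1. Such matches describe the letters of these windows and are not bound sites.

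The ligand and its receptors were held by different cells in every library. The 4 endocrine-like classes held 97.9% to 99.2% of Vegfa UMIs, with 79.2% to 84.8% in beta-like cells alone. Endothelial-like cells held 93.2% to 99.7% of the UMIs of Kdr, 93.1% to 99.6% of Flt1, 93.5% to 99.2% of Plvap and 92.9% to 99.3% of Esm1. Nrp1 was less tied to that class, at 83.4% to 93.6%, and Angpt2 the least, at 48.7% to 60.2%. These shares depend on how many cells of each class a library held, so they describe the sampled cells and not the islet.

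**Figure D1:**
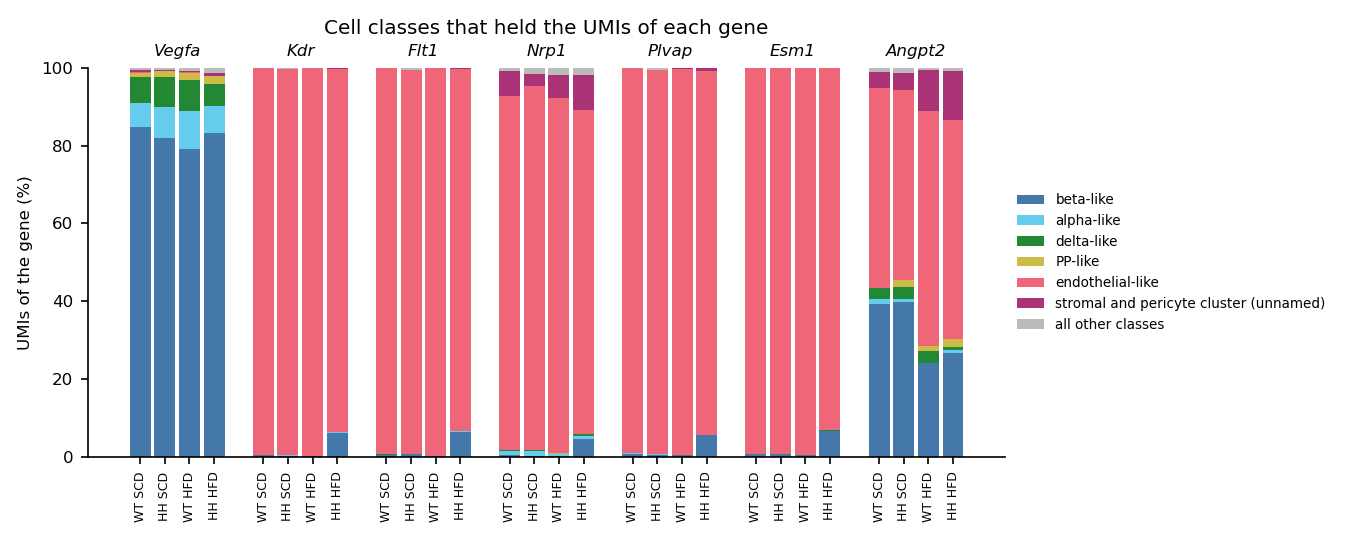
Share of the UMIs of each gene (%, stacked to 100) held by each cell class among kept cells, with 1 bar per library in the order WT SCD, HH SCD, WT HFD and HH HFD. Vegfa bars are mostly beta-like (79.2% to 84.8%), those of Kdr, Flt1, Plvap and Esm1 are almost wholly endothelial-like, and Angpt2 is divided between both.

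In beta-like cells, Vegfa was lower in HH than in WT on both diets. Its level was 149.8 CPM (146.5 to 153.0) in WT SCD, 122.3 (119.3 to 125.3) in HH SCD, 137.1 (133.2 to 141.1) in WT HFD and 100.7 (98.3 to 103.0) in HH HFD, from 4652 to 8160 UMIs. The intervals of the 4 libraries did not overlap, and both HH libraries lay below both WT libraries. The HH over WT log2 ratio was -0.29 (-0.34 to -0.25) on SCD and -0.45 (-0.50 to -0.39) on HFD. The median ratio over all genes tested in beta-like cells was itself below 0, at -0.09 on SCD and -0.14 on HFD, and 9.85% of 11457 genes and 8.38% of 11494 genes lay at or below Vegfa. With hormone and mitochondrial genes left out of the total, the ratios were -0.24 and -0.42, and with median-of-ratios size factors they were -0.20 and -0.32. Over all beta-like cells, HFD over SCD was -0.13 (-0.18 to -0.08) in WT and -0.28 (-0.33 to -0.23) in HH, but this direction was mostly not found within clusters, as given below.

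Neither difference passed 1.5-fold, the size used here to call a gene among those with at least 100 UMIs in a pair of libraries. On SCD, 0 of the 2 members tested in beta-like cells were called, where 0.463% of 11457 genes were called higher and 1.10% lower in HH. On HFD all 7 members were tested, and Vegfa was not called, while 2.25% of 11494 genes were called higher and 3.47% lower. Kdr, Flt1, Nrp1, Plvap and Esm1 were past the size, higher in HH HFD. They reached 100 UMIs only through HH HFD, with 98 to 453 UMIs there against 6 to 34 in WT HFD, so the filter itself set this direction and nothing is read from the count. Their UMIs are taken up below with the endothelial RNA of that library's beta-like droplets.

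The lower level in HH was shared by the beta-like clusters that were compared, although their make-up differed between libraries. Vegfa was lower in HH in 9 of 9 comparisons of a cluster between genotypes within a diet, and the interval lay below 0 in 6 of them, 2 of 4 on SCD and 4 of 5 on HFD. Comparisons within a diet share the same libraries, so they are not independent of one another. Over all beta-like cells the median of all genes was -0.09 on SCD and -0.14 on HFD, and it was not taken within clusters. In the cluster led by Mt2, with 1399 WT SCD and 998 HH SCD cells, Vegfa was 129 CPM in HH SCD against 158 in WT SCD (-0.29, -0.35 to -0.23). In the cluster led by Nupr1, with 1005 HH HFD and 854 WT HFD cells, it was 119 against 134 CPM (-0.17, -0.25 to -0.10). The cluster led by Dapl1 held 1521 cells of HH HFD but 53 of WT HFD, with 88.5 and 114 CPM (-0.36, -0.56 to -0.16). Between the diets the clusters had few cells in common, so that the one led by Mt2 held 1399 cells of WT SCD and 23 of WT HFD, and the one led by Nupr1 held 45 and 854. Within a cluster and genotype, Vegfa was higher on HFD in 7 of 9 comparisons, with the interval above 0 in 3 of them and below 0 in 1. In the cluster led by Nupr1 it was 134 CPM on HFD against 103 on SCD in WT (0.38, 0.14 to 0.64) and 119 against 93.9 in HH (0.34, 0.13 to 0.56). The interval lay below 0 in the cluster led by Car15 in HH (-0.38, -0.58 to -0.18). Without the cluster led by Dapl1, which also held the alpha cell gene Gc among its leading genes, the HFD ratio over beta-like cells was -0.22, and the HFD over SCD ratio in HH, given above as -0.28, was -0.05.

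**Figure D2:**
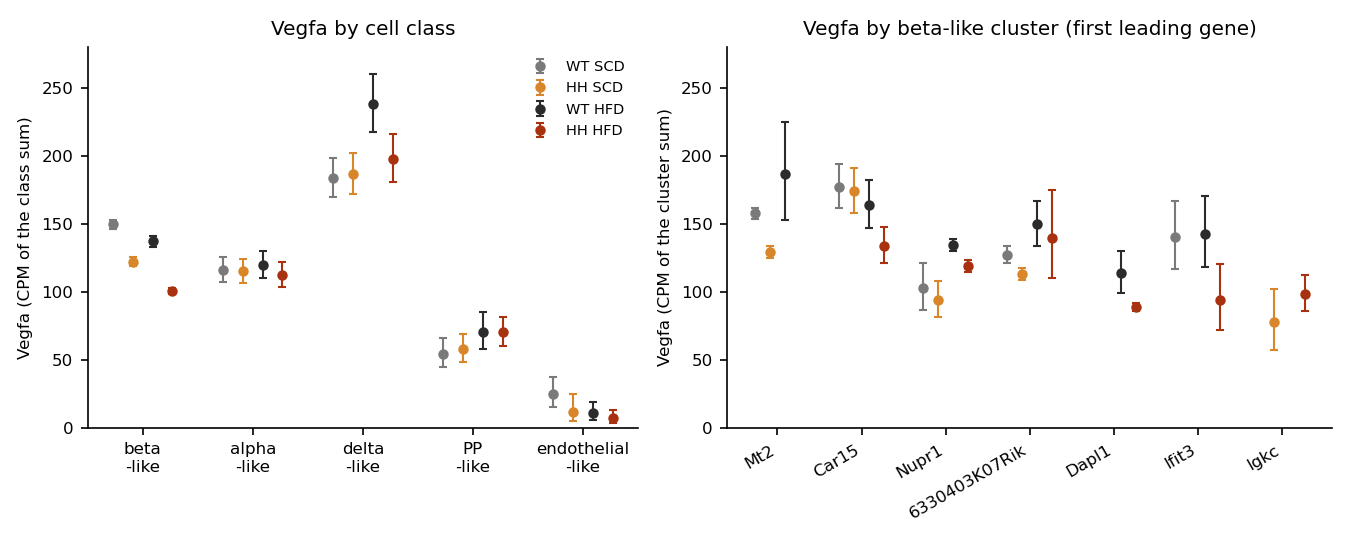
Vegfa in CPM by cell class (left) and by beta-like cluster, named by its first leading gene (right), with 1 point per library and bars for exact 95% Poisson intervals of counting error. Beta-like cells run from 100.7 CPM in HH HFD to 149.8 in WT SCD, and HH lies below WT in the 9 comparisons within a cluster and diet. A library with too few cells of a cluster to be compared has no point.

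The other endocrine-like classes carried Vegfa without the same difference on both diets. Alpha-like cells had 116, 115, 120 and 112 CPM in WT SCD, HH SCD, WT HFD and HH HFD, with HH over WT ratios of -0.01 and -0.09 whose intervals held 0. Delta-like cells had 183, 187, 238 and 198 CPM, so the WT HFD library stood above the others, and the ratio was 0.03 on SCD and -0.27 (-0.45 to -0.08) on HFD. In PP-like cells, which make pancreatic polypeptide, Vegfa was 54.5, 57.8, 70.5 and 70.3 CPM. Whether the genotype difference itself differed between classes was not tested.

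Among the endocrine-like classes, Vegfa was highest in delta-like, then beta-like, alpha-like and PP-like cells in WT SCD, HH SCD and WT HFD, and in HH HFD alpha-like cells stood above beta-like cells (0.16, 0.03 to 0.28). Beta-like and alpha-like cells of HH SCD were not apart beyond counting error (0.09, -0.03 to 0.21), and the other neighbours were. This order rests on the total, since hormone RNA fills much of an endocrine cell. Without hormone and mitochondrial genes, beta-like cells stood highest in WT SCD, HH SCD and WT HFD, at 412, 350 and 386 CPM, and delta-like cells had 299 against 288 CPM in HH HFD. On that scale alpha-like cells had 189 to 208 CPM and PP-like cells 123 to 155.

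Per cell, after each was thinned to 3000 UMIs, Vegfa was found in 37.2% of beta-like cells in WT SCD and 31.1% in HH SCD, with 33.7% in WT HFD and 26.2% in HH HFD. The order of the libraries was that of the CPM. In delta-like cells the shares were 42.7% to 51.9%. Unthinned, 89.7% to 96.8% of beta-like cells held a Vegfa UMI, at median depths of 24208 to 29785 UMIs.

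Endothelial-like cells held little Vegfa. It was found in 0.685% to 5.51% of them after thinning, and their sums held 22, 7, 13 and 9 UMIs, or 24.6, 11.9, 11.0 and 7.09 CPM. Stray beta cell RNA, scaled by Ins2, could give 7.83, 2.95, 3.91 and 2.39 CPM of this. The largest value and the largest amount of stray RNA were both in WT SCD, and the rest of the signal was not resolved further. Stray RNA of other endocrine cells was not counted here. In these cells Gcg was 7183 CPM in WT SCD and 645 to 892 CPM in the other libraries, and Ppy was 4144 CPM in HH SCD.

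In endothelial-like cells the receptors and the co-receptor were lower in HH than in WT on HFD, while on SCD their direction depended on the processing. Whether the genotype difference itself differed between the diets was not tested. Kdr, the signalling receptor, was 3155 CPM (3040 to 3274) in WT SCD, 3579 (3427 to 3735) in HH SCD, 3569 (3462 to 3678) in WT HFD and 2887 (2795 to 2982) in HH HFD. Kdr was thus lowest in HH HFD, and the intervals of HH SCD and WT HFD overlapped. The HH over WT ratio was 0.18 (0.10 to 0.26) on SCD and -0.31 (-0.37 to -0.24) on HFD, where 11.0% of 4193 genes lay at or below it. Among the cells at or below their library's median share of hormone UMIs, the SCD ratio of Kdr was -0.04 and the HFD ratio -0.47.

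Flt1, the receptor that can act as a decoy, was 4780 CPM (4638 to 4925) in WT SCD, 4846 (4669 to 5027) in HH SCD, 4904 (4779 to 5032) in WT HFD and 4155 (4043 to 4268) in HH HFD. The first 3 libraries overlapped and HH HFD stood below them. Its HH over WT ratio was 0.02 (-0.05 to 0.09) on SCD and -0.24 (-0.29 to -0.19) on HFD, with 16.0% of genes at or below it. The SCD ratio of Flt1 was above 0 under 3 of 9 alternatives, and -0.19 in cells with few hormone UMIs, where its HFD ratio was -0.39. Nrp1, the co-receptor, was 1750 CPM (1664 to 1839), 1852 (1744 to 1966), 1934 (1856 to 2015) and 1368 (1304 to 1434) in the same order. HH HFD was again the lowest and did not overlap the others. The ratio of Nrp1 was 0.08 (-0.03 to 0.19) on SCD and -0.50 (-0.59 to -0.41) on HFD, and 3.48% of genes lay at or below the latter. The SCD ratio of Nrp1 was above 0 under 6 of 9 alternatives, and -0.17 in cells with few hormone UMIs.

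Over all endothelial-like cells, Esm1, the tip cell proteoglycan, had the same order of HH and WT as Kdr on each diet. It was 4183 CPM (4050 to 4319) in WT SCD, 4663 (4490 to 4841) in HH SCD, 4403 (4285 to 4524) in WT HFD and 3385 (3285 to 3488) in HH HFD. The HH SCD value was the highest and that of HH HFD the lowest, and its ratios were 0.16 (0.09 to 0.23) on SCD and -0.38 (-0.44 to -0.32) on HFD, with 7.01% of genes at or below it. In cells with few hormone UMIs the ratios of Esm1 were 0.02 on SCD and -0.63 on HFD. The SCD ratio of Kdr was -0.04 in those cells, so the shared order on SCD was not seen there. Between the diets, Esm1 was lower on HFD in HH (-0.46, -0.53 to -0.39), and so were Kdr (-0.31), Flt1 (-0.22) and Nrp1 (-0.44). In WT the same 4 genes had ratios of 0.07, 0.18, 0.04 and 0.14. Of 9 alternatives, the WT ratio kept its sign under 7 for Esm1, 9 for Kdr, 4 for Flt1 and 8 for Nrp1.

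Plvap, the diaphragm protein, differed between the diets more than between the genotypes. It was 4585 CPM (4446 to 4728) in WT SCD, 4941 (4763 to 5124) in HH SCD, 5876 (5739 to 6016) in WT HFD and 6003 (5869 to 6139) in HH HFD. Both HFD libraries stood above both SCD libraries, with HFD over SCD ratios of 0.36 (0.30 to 0.41) in WT and 0.28 (0.22 to 0.34) in HH. The HH over WT ratio was 0.11 (0.04 to 0.18) on SCD, or -0.03 in cells with few hormone UMIs, and 0.03 (-0.02 to 0.08) on HFD. The median over all genes of endothelial-like cells was 0.10 in WT and 0.08 in HH between the diets, and 73.2% and 68.3% of genes lay at or below Plvap.

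Angpt2, the ligand of Tek, was sparse. Its endothelial-like sums held 90, 77, 97 and 143 UMIs, or 101 CPM (80.9 to 124), 131 (103 to 164), 81.8 (66.3 to 99.8) and 113 (94.9 to 133). Both HH libraries were above both WT libraries, although the intervals overlapped within each diet. The HH over WT ratio was 0.38 (-0.08 to 0.84) on SCD and 0.46 (0.08 to 0.85) on HFD, where 5.06% of genes lay at or above it. Over 9 alternatives the HFD ratio ran from 0.14 to 0.66. Between the diets it was -0.30 (-0.73 to 0.13) in WT and -0.22 (-0.63 to 0.20) in HH.

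**Figure D3:**
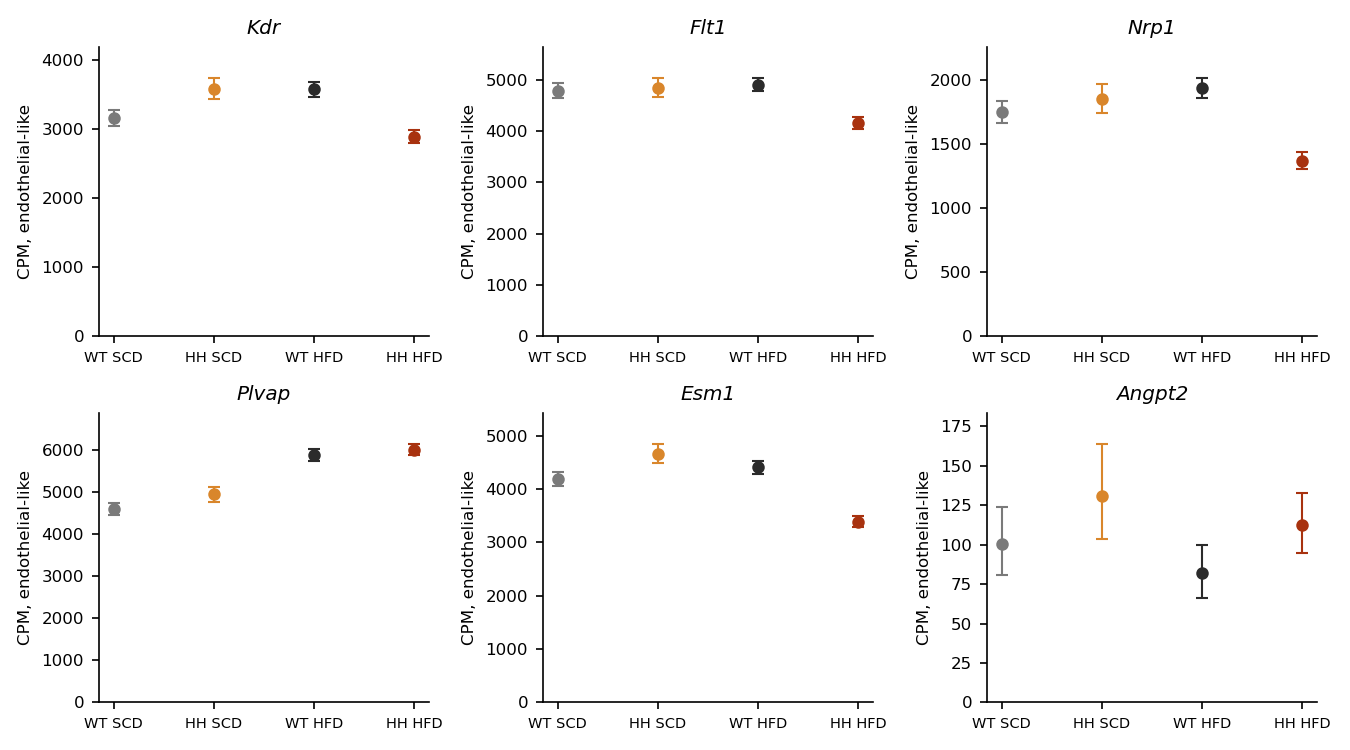
Levels of 6 members in endothelial-like cells (CPM, each panel with its own axis from 0), with 1 point per library and bars for exact 95% Poisson intervals of counting error. Kdr, Flt1, Nrp1 and Esm1 are lowest in HH HFD, Plvap is higher in both HFD libraries, and Angpt2 is higher in HH within each diet with wide intervals.

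None of the 6 members tested in endothelial-like cells passed 1.5-fold in any of 4 comparisons. In HH over WT, 2.0% of 2649 genes were called higher and 3.32% lower on SCD, and 2.72% of 4193 genes were called higher and 1.84% lower on HFD. Between the diets, 12.5% of 3618 genes were called higher and 10.9% lower in WT, and 11.5% of 3370 genes were called higher and 9.50% lower in HH. Under some alternatives Esm1 and Angpt2 came past it. HH over WT on HFD was then -0.61 for Esm1 under a looser filter on cells, and -0.63 for Esm1 and 0.66 for Angpt2 in cells with few hormone UMIs. HFD over SCD was -0.59 and -0.62 for Esm1 in HH under the same settings, and -0.67 for Angpt2 in WT in cells with few hormone UMIs. The comparisons share libraries, so they are not independent of one another.

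**Figure D4:**
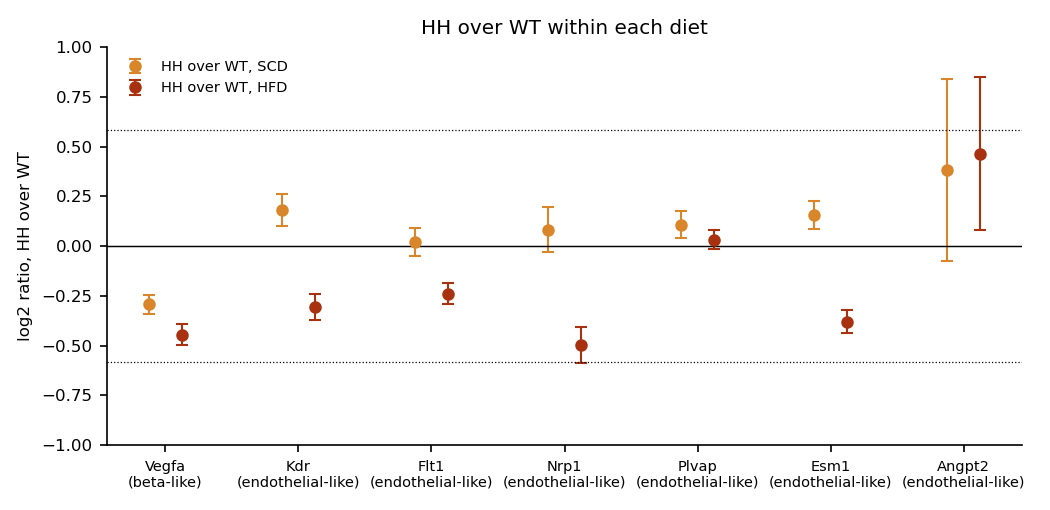
HH over WT log2 ratio within each diet for Vegfa in beta-like cells and 6 members in endothelial-like cells, with exact 95% intervals of counting error, and dotted lines at 1.5-fold. Vegfa lies below 0 on both diets, Kdr and Esm1 lie above 0 on SCD and below it on HFD, and each point stays within the dotted lines.

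The members were found together in single endothelial-like cells. After thinning to 3000 UMIs, Kdr was in 93.8% to 98.6% of the cells of a library, Flt1 in 98.4% to 100%, Nrp1 in 92.2% to 97.8% and Plvap in 98.4% to 100%. Esm1 was in 83.5%, 89.9%, 84.2% and 74.5%, so the share was lowest in HH HFD, as its level was. All of Kdr, Flt1, Nrp1, Plvap and Esm1 were held by 104 of 127 cells in WT SCD, 79 of 89 in HH SCD, 120 of 146 in WT HFD and 140 of 192 in HH HFD. Angpt2 was in 19.7%, 25.8%, 16.4% and 24.5%, and its cells held Esm1 too in 25 of 25, 23 of 23, 24 of 24 and 44 of 47 cells. As a background, beta-like cells held Kdr in 0% to 0.492%, Plvap in at most 1.13% and Angpt2 in 0.35% to 0.55%, at the same thinned depth. Unthinned median depths were 5812 to 7127 UMIs in endothelial-like cells.

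A minority of the endothelial-like cells held less of the axis. At a finer clustering, again without the members, the class divided into a larger cluster of 504 cells and a smaller one of 50, or 12, 2, 11 and 25 cells in WT SCD, HH SCD, WT HFD and HH HFD. The smaller was led by genes known from veins and inflamed or larger vessels, among them the leukocyte adhesion receptor Selp (1565 against 2.54 CPM in the larger), the chemokine receptor Ackr1 (580 against 0.28), the clotting protein Vwf (607 against 1.41), Lrg1 (1497 against 11.9) and the water channel Aqp1 (1782 against 68.4, and 2028 against 33.9 without HH HFD). Selp was 621 against 2.55 CPM without WT SCD, which held 444 of its 626 UMIs in the smaller cluster, and 1863 against 1.64 without WT HFD. The smaller cluster was not given a name of its own. The comparison of the clusters is a description, since the same cells made them.

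Esm1 was 4513 CPM in the larger and 95.0 in the smaller cluster, a 47.5-fold gap. Kdr was 3567 against 510 CPM (7.0-fold), Nrp1 1858 against 275 (6.76-fold) and Flt1 5004 against 1275 (3.93-fold). Plvap stayed closer, at 5746 against 3170 CPM (1.81-fold). Angpt2 was 114 CPM in the larger cluster against 7.50 from 3 UMIs in the smaller, a log2 ratio of 3.93 (2.37 to 6.21) against 5.57 (5.11 to 6.07) for Esm1, so these counts do not settle which gap was wider. Without HH HFD the gap of Angpt2 was 23.1-fold in place of 15.2-fold, from 1 UMI in the smaller cluster, and the gaps of the other 5 endothelial members moved by at most 1.14 times without any 1 library. The receptors, the co-receptor and the VEGF-induced Esm1 were thus all lower in the smaller cluster, and Plvap was the one least lowered. The smaller cluster made up 9.45% (4.98 to 15.9) of the endothelial-like cells in WT SCD and 2.25% (0.273 to 7.88) in HH SCD. On HFD it made up 7.53% (3.82 to 13.1) in WT and 13.0% (8.61 to 18.6) in HH. Only the intervals of HH SCD, with 2 such cells, and HH HFD did not overlap. Whether these shares bear on the levels of the class was not tested. In the larger cluster alone, HH over WT ratios were 0.06 on SCD and -0.22 on HFD for Kdr, -0.08 and -0.15 for Flt1, -0.04 and -0.41 for Nrp1, and 0.02 and -0.27 for Esm1.

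**Figure D5:**
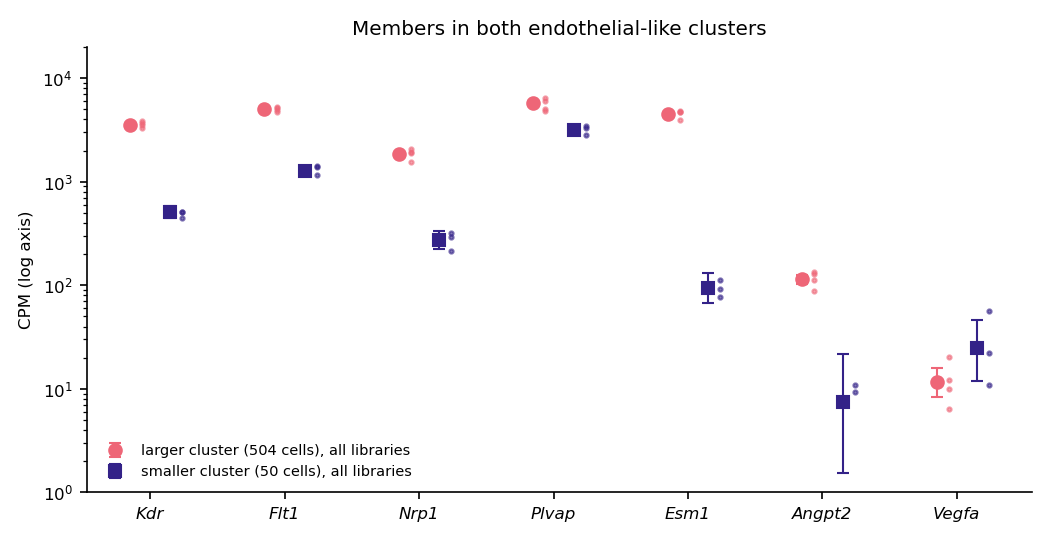
CPM (log axis) of the 7 genes in the larger (504 cells, circles) and the smaller (50 cells, squares) endothelial-like cluster, with large symbols for all libraries together, bars for exact 95% Poisson intervals of counting error, and small points for single libraries with at least 10 cells and 1 UMI. Esm1 shows a wide gap (4513 and 95.0 CPM) and Plvap the narrowest of the endothelial members (5746 and 3170 CPM), while Vegfa is low in both.

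Outside their main class, Nrp1, Angpt2, Plvap and Vegfa were also found in other cells that are not endocrine. Nrp1 was 274, 285, 427 and 209 CPM in the unnamed cluster that held both stromal and pericyte markers. At a finer clustering this separated into pericyte-like cells, which wrap capillaries (97 cells, Nrp1 331 CPM), and stromal-like cells (104 cells, Nrp1 369 CPM). Angpt2 was 83.3 CPM (61.0 to 111) in the pericyte-like and 19.3 CPM (10.8 to 31.9) in the stromal-like cells over all libraries. This order was that of the HFD libraries, with 91.2 against 13.8 CPM in WT and 100.3 against 6.25 in HH. The SCD libraries, with 1 to 6 UMIs a value, had 13.7 against 24.6 CPM in WT and 39.9 against 73.8 in HH. Plvap was 92.8 CPM (72.6 to 117) from 72 UMIs in the stromal-like cells, with 20.5, 14.8, 96.9 and 162 CPM in WT SCD, HH SCD, WT HFD and HH HFD. In the same cells Kdr had 0 UMIs, which allows up to 4.75 CPM, and Flt1 was 7.73 CPM. Vegfa was 79.9 CPM (61.3 to 102) in the stromal-like cells. In the whole unnamed cluster Vegfa was 37.3 to 91.4 CPM, of which stray beta cell RNA, scaled by Ins2, could give 20.8 to 38.0. Ductal-like cells, few in number, had Vegfa at 205 CPM (145 to 283) in WT SCD and 115 (78.5 to 162) in HH HFD, from 37 and 32 UMIs, and the stray RNA in them was not estimated. Macrophage-like cells of WT HFD held Nrp1 at 60.7 CPM and those of HH HFD at 33.5. In alpha-like cells Nrp1 was low, at 2.75 to 3.69 CPM, and stray endothelial RNA, scaled by Emcn, could give 0.16 to 0.54 CPM.

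Angpt2 also had a low level in beta-like cells, 1.27, 1.19, 1.15 and 0.961 CPM from 69, 63, 39 and 68 UMIs. Stray endothelial RNA could give 0.017, 0.010, 0.008 and 0.112 CPM, less than the level in every library. Over the many beta-like cells this came to 24.2% to 39.9% of all Angpt2 UMIs. Mcph1, whose gene spans Angpt2 on the other strand, was 3.11 to 3.81 CPM in the same cells, and reads of both cannot be told apart if counting did not use the strand. In endothelial-like cells Mcph1 was 2.53 to 6.81 CPM, far under Angpt2.

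Endothelial RNA was also found in beta-like droplets, most of it in HH HFD. Kdr had 247 UMIs there, 3.49 CPM, against 0.15 to 0.20 CPM in the beta-like cells of the other libraries, and Flt1, Nrp1, Plvap and Esm1 were higher there too. At least 3 UMIs of the 10 endothelial markers were held by 31 of 2022 beta-like droplets in WT SCD, 23 of 1982 in HH SCD, 15 of 1135 in WT HFD and 64 of 2844 in HH HFD. In the first 3 libraries these droplets held 0 to 14 UMIs of each of the 5 genes, and in HH HFD 85 to 350. Over all beta-like cells, Ramp2 alone gave 397 of 773, 452 of 796, 206 of 452 and 650 of 2127 marker UMIs, in library order. In the first 3 libraries, 3 marker UMIs alone therefore do not show that a droplet held endothelial RNA. The 64 droplets held 83.8% of the Kdr, 86.6% of the Flt1, 86.7% of the Nrp1, 77.3% of the Plvap and 78.2% of the Esm1 UMIs. The 64 also held 14.7% of the Angpt2 and 1.91% of the Vegfa UMIs. Stray endothelial RNA, scaled by Emcn, could give 0.53, 0.28, 0.37 and 2.87 CPM of Kdr, above the measured level in WT SCD, HH SCD and WT HFD and below the 3.49 CPM of HH HFD. Without the 64 droplets Kdr was 0.58 CPM and Vegfa 101.3 CPM in HH HFD, so Vegfa in the other beta-like cells was as low as before. Between the diets in HH the same 5 members were past the size, of 7 tested, where 5.11% of 11707 genes were called higher and 7.89% lower. They again reached 100 UMIs only through HH HFD, with 3 to 19 UMIs in HH SCD, so the count carries no support. In WT 0 of 2 members were called, beside 2.88% and 5.37% of 11247 genes. With such droplets left out of all libraries, a choice made after seeing the data, the HH over WT ratio of Vegfa on HFD was -0.44. Plvap then had 103 UMIs in HH HFD, 34 in WT HFD and 17 in HH SCD, and Kdr had 40, 6 and 8. The HFD over SCD ratio of Plvap in HH was still past the size (2.19, 1.45 to 3.03), again for a gene that reached 100 UMIs only through HH HFD.

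The rest of the family was examined as a list of 10 genes. In endothelial-like cells 4 were tested on SCD and 5 on HFD, and 0 passed 1.5-fold between genotypes, beside 2.0% and 3.32% of all genes on SCD and 2.72% and 1.84% on HFD, with medians of -0.12 and -0.01 against 0.02 for all genes on both diets. Tek, the receptor of Angpt2, was 209 to 322 CPM in endothelial-like cells and higher on HFD in both genotypes, by 0.42 (0.17 to 0.66) in WT and 0.61 (0.32 to 0.92) in HH. Tie1, its partner receptor, was 369 to 488 CPM, and Flt4, the receptor of Vegfc, 208 to 217 CPM. Nrp2, the second neuropilin, was 154 to 254 CPM and lower on HFD in WT (-0.73, -1.01 to -0.44), with -0.20 (-0.51 to 0.12) in HH. Between the diets, Nrp2 was the 1 gene of 4 tested called lower in WT, where 10.9% of all genes were, and Tek the 1 of 4 called higher in HH, where 11.5% were. Whether these changes differed between the genotypes was not tested.

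Among the other ligands, Vegfb, which binds Flt1, was spread over the classes, at 23.4 to 31.6 CPM in beta-like, 21.4 to 25.2 in alpha-like, 25.7 to 29.97 in delta-like and 7.83 to 15.2 in endothelial-like cells. Pgf, another Flt1 ligand, was 32.1 to 76.2 CPM in delta-like cells against 5.25 to 11.9 in beta-like cells, and 37.1 to 135 in the unnamed stromal and pericyte cluster. Vegfc was 23.8 to 44.7 CPM in endothelial-like cells. Vegfd (25.8 to 89.0 CPM), Angpt1 (22.9 to 32.1) and Angpt4 (11.5 to 69.2) were found in the unnamed cluster, the first being at most 0.788 CPM in endothelial-like cells.

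Tip cell and VEGF response genes, a list of 16, had 11 tested on SCD and 14 on HFD. On SCD 2 were higher in HH and 0 lower, beside 2.0% and 3.32% of all genes, with a median of 0.23 and 10 of 11 above 0. On HFD 1 was higher and 1 lower, beside 2.72% and 1.84%, with a median of -0.08, and the median of all genes was 0.02 on both diets. Unc5b, a netrin receptor of tip cells, was 100 against 53.7 CPM on SCD (0.90, 0.33 to 1.49) and 40.2 against 72.5 CPM on HFD (-0.85, -1.38 to -0.34). Over all endothelial-like cells, it had the same pair of directions as Kdr and Esm1. Pdgfb, which recruits pericytes, was 215 against 131 CPM on SCD (0.71, 0.34 to 1.09), with -0.16 on HFD. Aplnr, the apelin receptor, was 159 against 76.7 CPM on HFD (1.05, 0.69 to 1.42), and held too few UMIs on SCD, 10 and 32. Id1, a transcriptional regulator induced by BMP signalling, was within the size, at 0.40 on SCD and -0.42 on HFD. Between the diets, 5 of 13 were higher and 0 lower in WT, where 12.5% and 10.9% of all genes were, with medians of 0.25 for the list and 0.10 for all genes. In HH 2 of 13 were higher and 2 lower, beside 11.5% and 9.50% of all genes, with medians of -0.19 and 0.08. Among the higher genes, Apln (108 UMIs on HFD, 32 on SCD) and Aplnr (91 and 32) in WT reached 100 UMIs mostly through HFD. So did Aplnr in HH (202 and 10). The filter favoured this direction for them, so nothing is read from these counts.

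Capillary wall genes, 11 of 12 listed symbols being in the files, had 10 tested and 0 called between genotypes on either diet, with medians of 0.08 and 0.27 against 0.02 for all genes on both. The shares of all genes called, given above, were 2.0% to 3.32% in these comparisons on SCD and 1.84% to 2.72% on HFD. On HFD 7 of 10 lay above 0. Of the genes of the capillary basement membrane, Col4a1 (0.49), Col4a2 (0.46), Sparc (0.47) and Nid1 (0.25) lay above 0 and Lamb1 (-0.23), Hspg2 (-0.08) and Lama4 (-0.01) below, all short of 1.5-fold. Between the diets Sparc had 0.50 in WT and passed the size in HH (0.77, 0.70 to 0.85), the 1 gene of 10, which is near the 11.5% of all genes called higher there, and 0 of 10 passed it in WT, beside 12.5% higher and 10.9% lower.

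Hypoxia genes are set beside Vegfa, since Vegfa is a known target of hypoxia-inducible factors. Of 16, 10 were tested in beta-like cells on SCD and 11 on HFD. Between genotypes 0 passed 1.5-fold on SCD, beside 0.463% of all genes higher and 1.10% lower, with a median of -0.13. On HFD 1 was higher and 0 lower, beside 2.25% and 3.47%, with a median of -0.16, near the medians of all genes. The 1 called was Epas1, with 139 UMIs in HH HFD against 5 in WT HFD. Of the 139, 93 were in the 64 droplets with endothelial RNA, and without such droplets Epas1 had 46 against 4 UMIs, too few to be tested. It too reached 100 UMIs only through HH HFD. Hif1a, the oxygen-regulated subunit, was lower in HH by -0.31 (-0.42 to -0.21) on SCD and -0.18 (-0.30 to -0.06) on HFD, and Pgk1, a glycolytic enzyme, was 0.03 and 0.34. Between the diets 1 gene was higher and 3 lower of 10 tested in WT, beside 2.88% and 5.37% of all genes, and 2 were higher and 3 lower of 11 in HH, beside 5.11% and 7.89%. One of the higher genes in HH was Epas1, with 139 UMIs against 7, which reached 100 UMIs only through HH HFD and had 46 against 7 without the droplets with endothelial RNA. The list medians were -0.33 in WT and -0.25 in HH, against -0.01 and -0.05 for all genes. The lower genes of both genotypes included Ankrd37 (-0.99 and -1.06), Slc2a1 (-0.97 and -0.92) and Ndrg1 (-0.67 and -0.70), and Ddit4, a stress-induced inhibitor of mTOR, was higher (1.68 and 1.61).

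Genes whose pattern was most like that of a member were found by the correlation of log2(CPM + 10) over 26 sums of a class in a library, among 11140 genes. For Vegfa these were Steap2 and Fam110b (Pearson's r 0.94 each) and Casc4, Twsg1 and St18 (0.93 each). For Kdr they were Tmem204, Col13a1, Robo4, Cyyr1 and the member Esm1, each with an r of 0.999. The sums share libraries and depth, and the values mostly reflect which classes hold a gene.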

How the data were processed

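The 4 libraries were made with the 10x 3′ kit. Per the submitters' processing notes and the study's methods, the authors aligned reads with Cell Ranger 6.0 to mm10. The deposited filtered matrices hold raw UMI counts, as they stood before the correction of ambient RNA and the removal of doublets that the methods describe. From these deposited counts, cells were kept with under 10% mitochondrial UMIs, 3000 to 50000 UMIs and 2000 to 5000 genes. The top-scored cells of Scrublet, at 0.8% per 1000 cells (33 to 153 per library, 345 in all), were removed.

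Libraries were clustered together without integration (3000 variable genes without the members, of which 6 would have been among them, 30 principal components, 20 neighbours, Leiden resolution 1, seed 1) with scanpy 1.11.5, leidenalg 0.10.2 and igraph 0.11.9 under Python 3.11.15. Sums and intervals were computed with pandas 2.3.3, numpy 2.4.6 and scipy 1.17.1. A cluster was named X-like when at least 3 markers of a type reached 0.25 of the highest mean of any cluster, were found in at least 10% of its cells, and made up a larger share of that type's markers than for any other type. No name was given when a second type reached 75% of its own markers, or had more markers among the 10 leading genes. The same held for a shallow cluster with no marker of its type among those genes. Of 18 clusters 1 stayed unnamed. Since the names were rebuilt here, they can differ from those of the study, and so can the results. UMIs were summed per class and library and scaled to CPM.

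Intervals are exact Poisson (sums), exact conditional binomial (ratios) and Clopper-Pearson (shares), at 95%, and cover counting error only. They were tested on simulated counts. With 1 library per group no p-value was computed. Shares of cells were taken after thinning to 3000 UMIs. Stray RNA was estimated as a member's level in its source class times the ratio of the source's most abundant marker in both classes.

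Named genes were all members, list genes at least 1.5-fold apart between genotypes with 100 UMIs or more in both libraries together, and the 5 genes most correlated with Vegfa and with Kdr among genes with at least 500 UMIs, over sums of at least 20 cells. Other genes named with values were chosen after their values were seen. The members, lists and comparisons were chosen with earlier results of these data known. Alternatives were a looser filter (1000 UMIs, 500 genes), doublets kept, members among the clustering genes, Leiden resolution 2, other scalings, equal weight per cell, cells with few UMIs of other classes, other thinning depths and other source genes. Leaving out the cluster led by Dapl1, using only the larger endothelial-like cluster, and leaving out beta-like droplets with endothelial RNA were added after seeing the data. RefSeq promoters were matched by symbol for 5 members. That of Nrp1, whose window lies inside the annotated gene, is not shown.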

Additional observations from a re-analysis of the deposited data

Results flagged for a closer look

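Kdr and Esm1 in endothelial-like cells were marked because HH lay above WT on one diet and below it on the other. The HH over WT log2 ratio of Kdr was 0.18 on SCD and -0.31 on HFD, and that of Esm1 was 0.16 on SCD and -0.38 on HFD. With 1 library per group, this contrast of both diets was not tested. Among the cells at or below their library's median share of hormone UMIs, Kdr had -0.04 and Esm1 0.02 on SCD, so the opposite directions were not seen for Kdr there. In the larger endothelial-like cluster alone the SCD ratios were 0.06 and 0.02. Groups of 1 library hold too few samples for a search for samples that stand apart.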

How the results depend on the processing

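No paired analysis was possible because each group had 1 library, and no library was left out of the comparisons between groups, since none of its group would remain. The HH over WT ratio of Vegfa in beta-like cells was below 0 under 9 of 9 alternatives on both diets, and those of Kdr, Flt1, Nrp1 and Esm1 on HFD were below 0, and of Angpt2 on both diets above 0 (0.26 to 0.43 on SCD and 0.14 to 0.66 on HFD), under 9 of 9. Counts were few for Angpt2 (77 to 143 UMIs) and Vegfa (7 to 22 UMIs) in endothelial-like cells, and outside HH HFD for Nrp1 (3 to 8 UMIs) and Kdr (6 to 11 UMIs) in beta-like cells. The causes of the moves below were not tested, beyond what each alternative leaves out.

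For Vegfa in beta-like cells, the SCD ratio was -0.24 without hormone and mitochondrial genes and -0.20 with median-of-ratios size factors. The HFD ratio was -0.32 with size factors and -0.22 without the Dapl1-led cluster.

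With doublets kept, HH over WT was 0.081 on SCD and -0.21 on HFD for Kdr, -0.059 and -0.16 for Flt1, and 0.091 on HFD for Plvap. The class then held 511 cells, since a cluster led by Selp, Lrg1 and Aqp1 was not named in that setting, so this alternative changes both the doublets and the cells of the class. Under the looser filter, the HFD ratio was -0.42 for Kdr, -0.36 for Flt1 and -0.032 for Plvap. With equal weight per cell, it was -0.21 for Kdr and -0.17 for Flt1. In cells with few hormone UMIs, Kdr was -0.041 on SCD, a reversed direction, and -0.47 on HFD, Flt1 -0.19 and -0.39, and on SCD Nrp1 was -0.17 and Plvap -0.026, also reversed. In the larger endothelial-like cluster, Kdr was 0.064 on SCD and -0.22 on HFD, Flt1 -0.077 and -0.15, Nrp1 -0.038 on SCD and Plvap 0.089 on HFD. The HFD over SCD ratio in WT reversed to -0.093 for Nrp1 in cells with few hormone UMIs, and for Esm1 to -0.065 with size factors and -0.061 with equal weight per cell.

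Esm1 levels in CPM, in the order WT SCD, HH SCD, WT HFD and HH HFD, were 3826, 4076, 4132 and 2712 under the looser filter, 4725, 4883, 4758 and 3916 with doublets kept, and 4499, 4938, 4620 and 3542 without hormone and mitochondrial genes. With equal weight per cell they were 4425, 5001, 4242 and 3505. In WT SCD, WT HFD and HH HFD they were 4394, 4199 and 3190 with size factors, 4518, 4586 and 2973 in cells with few hormone UMIs and 4735, 4758 and 3945 in the larger cluster. Angpt2 in WT SCD was 80.9 CPM under the looser filter and 124 in cells with few hormone UMIs, and in HH HFD 84.8 under the looser filter. That filter gave Kdr levels of 3007, 3311, 3358 and 2512 CPM and Flt1 levels of 4572, 4564, 4682 and 3640 CPM in the 4 libraries. In WT HFD and HH HFD it gave 1823 and 1251 CPM for Nrp1 and 5540 and 5418 CPM for Plvap.

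Vegfa was found in 96.2%, 94.1%, 96.8% and 89.7% of beta-like cells without thinning and in 26.9%, 22.6%, 24.9% and 20.01% at 2000 UMIs. Angpt2 was found in 33.1%, 40.4%, 30.1% and 38.5% of endothelial-like cells without thinning, and in 17.2% at 2000 UMIs in HH HFD. Stray Kdr in beta-like cells, scaled by all 10 endothelial markers in place of Emcn, came to 3.77, 4.16, 3.47 and 6.20 CPM, against 0.53, 0.28, 0.37 and 2.87 CPM with Emcn. In HH HFD the measured 3.49 CPM lay between both estimates, and in the other libraries it was below both. The estimate from all markers counts the Ramp2 of beta-like cells, 6.07 to 9.19 CPM, as stray RNA, so it can be too high.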
